A study of Strophostyles helvola with 12 samples.

Results

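The comparison described here asks which root genes of the wild bean Strophostyles helvola changed differently with salt in a Beach and an Inland genotype. It used all 12 root libraries of the series, taken as 4 groups of 3 replicates, and tested for each gene the change with salt in Beach minus the change with salt in Inland. The Beach genotype, from sandy coastal soil in North Carolina, received NaCl to a final 400 mM (Beach treatment) or water (Beach control). The Inland genotype, from Missouri, received NaCl to a final 200 mM (Inland treatment) or water (Inland control). The paper describes Beach as salt-tolerant and Inland as salt-sensitive. It set each dose below the lethal limit it had found for that genotype, which was higher in Beach. Plants were 10-d seedlings given 50 mL of solution per day, and each replicate pooled whole roots of separate plants collected at 3 h, 24 h and 7 d. Each habitat is represented by 1 genotype, and the dose differed along with the genotype, so the effects of genotype and dose cannot be told apart. A value averages over the 3 times, and in whole roots fewer cells of a type and less RNA per cell cannot be told apart.

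Salt in the soil lowers the water available to roots and brings in sodium and chloride, which at high levels disturb ion balance and enzymes. Roots of many plants answer with hormone signals such as abscisic acid, with ion transport, with the build-up of protective solutes and with changes of the cell wall. A halophyte tolerates salt that stops the growth of a glycophyte, and relatives of common bean include both. A gene can therefore respond alike in 2 genotypes, respond more strongly in one, respond in one alone, or differ between them already without salt. The difference of the responses, called the interaction here, sets genes that respond differently apart from genes that respond alike. A difference between genotypes that is equal with and without salt does not enter it. Telling a stronger response from a response in one genotype alone also takes the change with salt within each genotype. The interaction is given on the log2 scale, where 1 is a 2-fold difference between the responses. A positive interaction means that the level in Beach moved up with salt relative to Inland, and a negative one that it moved down.

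Of the 27191 common bean genes in the table, 16909 exceeded 5 CPM, the count scaled to a common library total, in at least 3 libraries and were tested. Libraries held 29205979 to 41330498 counts. Beach control replicate 1 stood apart most, at a mean Euclidean distance in log2 CPM of 58.1 from the other replicates of its group, against 32.8 to 44.8 for the other 11 libraries. The counts carry gene identifiers with no gene names, so functions could not be assigned, the root origin could not be checked on marker genes, and no more than 2 identifiers are given in each direction. The reference genome was that of common bean, another species. A gain or loss of reads that is equal in treated and control libraries of a genotype cancels in the interaction. The RNA integrity numbers given in the paper were lower in every Beach treatment library than in any Beach control library, whereas those of the Inland groups overlapped. Their part in the interaction was not tested.

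Salt changed 835 of the 16909 genes (4.94%) differently in Beach than in Inland, by edgeR's quasi-likelihood test with an fdr of at most 0.05 after Benjamini-Hochberg adjustment and a difference of at least 2-fold. The interaction was positive for 425 genes (2.51%) and negative for 410 (2.42%), so the directions were nearly balanced. This balance depended on the scaling. With library totals in place of TMM, 344 genes passed with a positive and 589 with a negative interaction, as the median interaction of all genes moved to -0.13, against -0.01 with TMM. The size of the interaction among the 835 genes had a median of 1.35, with quartiles at 1.15 and 1.80 and the largest at 6.12. Over all tested genes the median size was 0.23. The standard error of the interaction had a median of 0.17 over all genes, against 0.12 for the change with salt within either genotype. The 2-fold limit applied to fitted values. When the difference itself was tested against 2-fold, 19 genes passed, 11 positive and 8 negative.

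**Figure D1:**
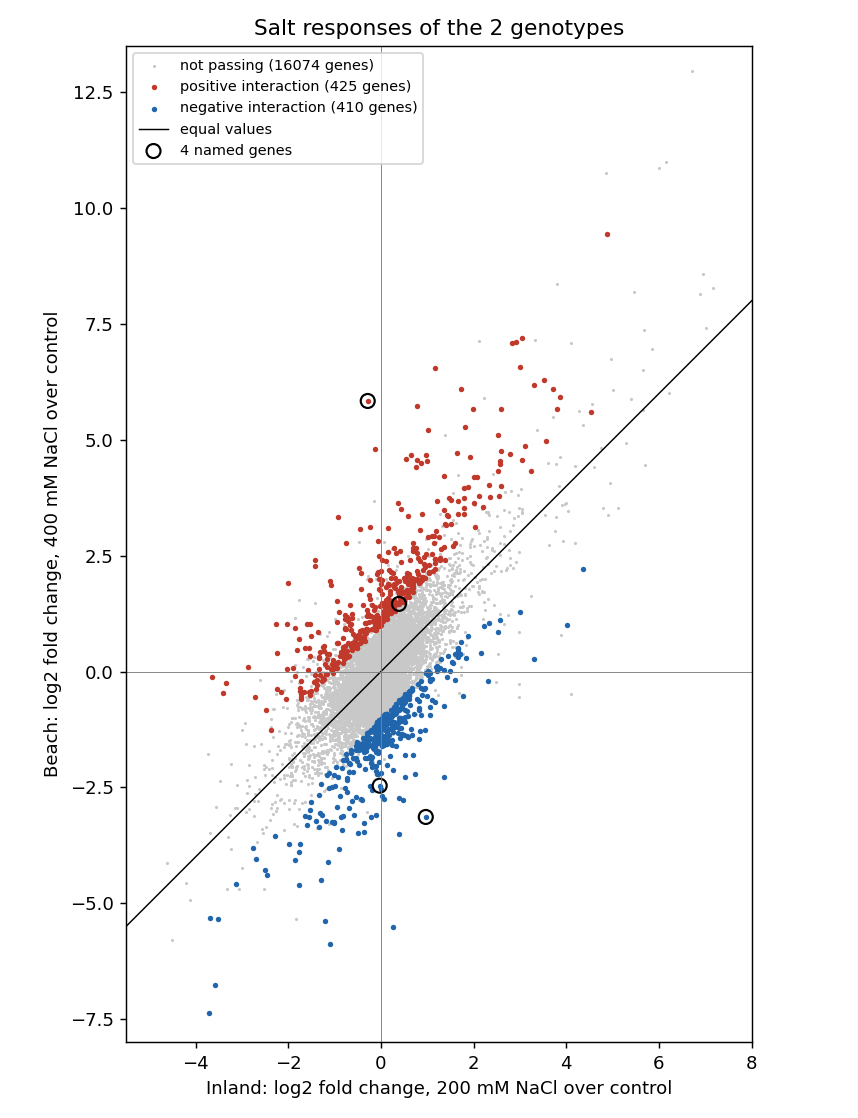
Fitted log2 fold change with salt in Beach (vertical) against Inland (horizontal) for the 16909 tested genes. Red points are the 425 genes with a positive and blue points the 410 with a negative interaction, open circles are the 4 named genes, and the line marks equal responses, from which the coloured genes lie at least 1 log2 unit away.

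For 802 of the 835 genes the responses did not overlap between the genotypes, that is, each of the 9 treated-minus-control differences in one genotype lay above each of the 9 in the other. Over all tested genes this held for 3327 (19.7%). The 835 were chosen on the same libraries, so their larger share largely follows from that choice and is no further evidence. At least 10 counts were present in each of the 12 libraries for 800 of the 835 genes. Both criteria left 768 genes, 384 in each direction, from which 4 were taken by rule as examples, namely the gene with the smallest p and the gene with the largest interaction in each direction.

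Phvul.003G134200 had the smallest p of all tested genes. Its level in Beach treatment was 331, 310 and 321 CPM, against 116, 112 and 121 CPM in Beach control. In Inland treatment it was 154, 147 and 153 CPM, against 112, 118 and 117 CPM in Inland control. The controls of the genotypes overlapped, all treated libraries lay above all controls, and Beach treatment lay above Inland treatment. Its log2 fold change with salt was 1.46 in Beach (standard error 0.06, edgeR fdr = 6.41e-08) and 0.39 in Inland (standard error 0.06, edgeR fdr = 0.000539). The difference of 1.07 (standard error 0.08, edgeR fdr = 0.000463) sits just above the 2-fold limit. It became 0.96, below the limit, with library totals in place of TMM (edgeR fdr = 0.000472).

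Phvul.006G148400 had the largest positive interaction of the genes that met both criteria. It exceeded 5 CPM only in the 3 Beach treatment libraries and so was tested only through the group where it was high. A higher level in that group was thus a condition of its being tested. Its level in Beach treatment was 38.7, 39.7 and 9.17 CPM, against 0.425, 0.379 and 0.721 CPM in Beach control. In Inland treatment it was 1.21, 0.790 and 0.930 CPM, against 0.626, 1.83 and 1.15 CPM in Inland control. All Beach treatment libraries lay above the other 9, although replicate 3 was well below replicates 1 and 2, and the Inland groups overlapped. It rose in Beach by 5.84 on the log2 scale (standard error 0.62, edgeR fdr = 2.48e-05), and its value in Inland was -0.29 (standard error 0.60, edgeR fdr = 0.751). The interaction was 6.12 (standard error 0.86, edgeR fdr = 0.00287). Without Beach treatment replicate 3 it was 6.55, and with limma-voom it was 5.74 and did not pass (limma-voom fdr = 0.120).

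Phvul.009G128500 had the smallest p among negative interactions. Its level in Beach treatment was 5.85, 4.69 and 6.59 CPM, against 33.1, 30.4 and 31.2 CPM in Beach control. In Inland treatment it was 32.5, 25.1 and 25.6 CPM, against 27.8, 31.3 and 25.7 CPM in Inland control. The 3 Beach treatment libraries lay below all others, and the Inland groups overlapped. It fell by 2.46 on the log2 scale in Beach (standard error 0.14, edgeR fdr = 4.71e-07), against a value of -0.03 in Inland (standard error 0.13, edgeR fdr = 0.895). The interaction was -2.44 (standard error 0.19, edgeR fdr = 0.000463).

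Phvul.005G124600 had the largest negative interaction of the genes that met both criteria. Its level in Beach treatment was 0.953, 1.13 and 0.698 CPM, against 8.23, 7.07 and 9.11 CPM in Beach control. In Inland treatment it was 10.5, 11.8 and 12.02 CPM, against 8.76, 3.59 and 5.19 CPM in Inland control. Each treated group lay outside the range of its control, below it in Beach and above it in Inland. It fell by 3.14 on the log2 scale in Beach (standard error 0.31, edgeR fdr = 1.74e-05). In Inland its value was 0.97 (standard error 0.26, edgeR fdr = 0.0156), just under the 2-fold limit. The interaction was -4.11 (standard error 0.41, edgeR fdr = 0.000691). Among Inland controls replicate 1 was the highest, and the interaction without it was -4.52.

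**Figure D2:**
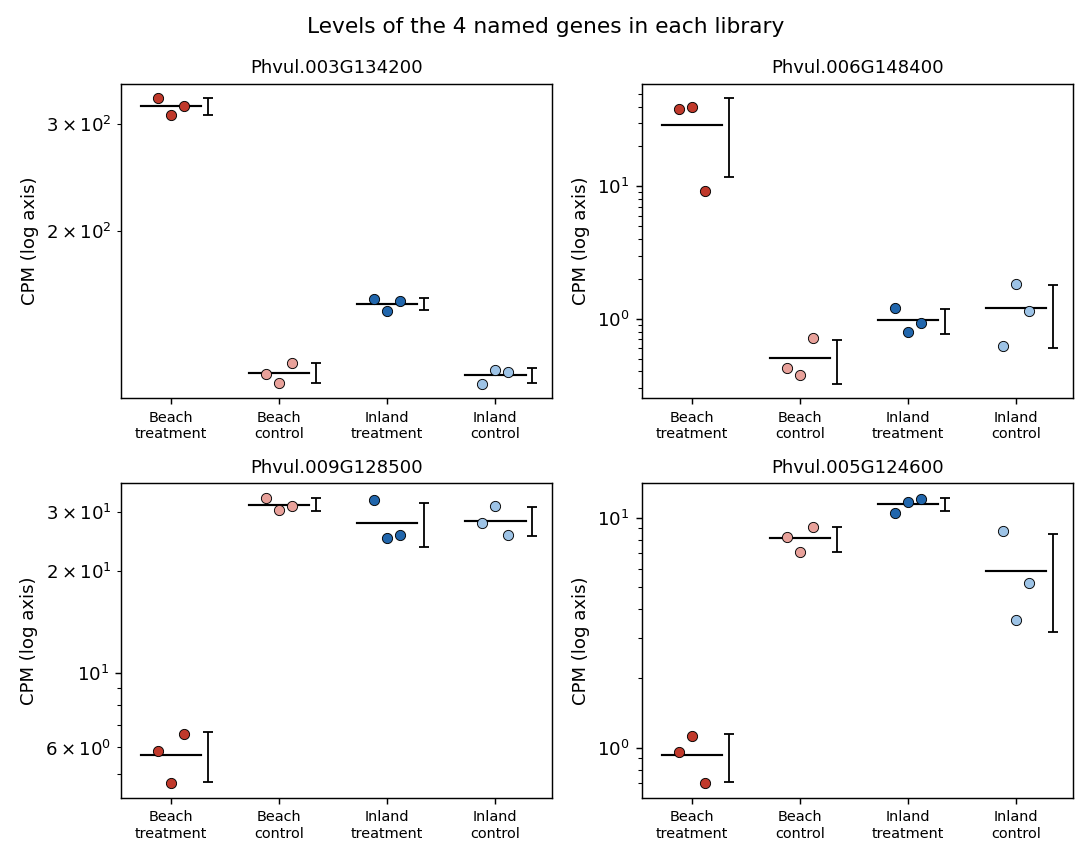
Level of each named gene in each library in CPM on a log axis. Points are the 3 replicates of a group, horizontal lines are group means and bars beside them are 1 SD. In the upper panels Beach treatment lies above the other groups, as at 310 to 331 CPM for Phvul.003G134200, and in the lower panels Beach treatment is the lowest group, as at 4.69 to 6.59 CPM for Phvul.009G128500.

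The 835 genes took several shapes, set out here by which genotype passed the same limits for its own change with salt in the fit of all 12 libraries. In that fit 2179 genes (12.9%) passed in Beach, 1154 higher (6.82%) and 1025 lower (6.06%) with salt. In Inland 1346 (7.96%) passed, 649 higher (3.84%) and 697 lower (4.12%). These calls share their libraries with the interaction, so they describe it and are no further evidence for it. The change was called in Beach alone for 454 of the 835 genes (54.4%), in both genotypes for 121 (14.5%), in Inland alone for 104 (12.46%) and in neither for 156 (18.7%). The class sizes carry the limits of the calls, since a change just under a limit is not shown to be absent.

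The most frequent shape was a fall in Beach without a call in Inland, with 243 genes. Their median change was -1.49 in Beach and -0.07 in Inland. A rise in Beach without a call in Inland followed with 211 genes, whose median change was 1.76 in Beach and 0.24 in Inland. The small medians in Inland follow in part from choosing genes that were called in Beach alone. In the libraries, the genes that rose lay at a median of 0.97 to 1.17 in Beach treatment and -0.78 to -0.67 in Beach control, as log2 CPM relative to the mean of the 4 groups. They lay at -0.06 to -0.01 in Inland treatment and -0.48 to -0.18 in Inland control. The Inland groups thus did not overlap in this median either, with a much smaller gap than in Beach. For the genes that fell in Beach, the medians were -1.24 to -0.87 in Beach treatment and 0.35 to 0.60 in Beach control. They were 0.16 to 0.37 in Inland treatment and 0.28 to 0.39 in Inland control, which overlapped.

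Responses that were called in both genotypes made up a smaller group with larger changes. A rise in both with the larger rise in Beach was found for 74 genes, with a median change of 3.71 in Beach and 1.80 in Inland. A fall in both with the larger fall in Beach was found for 37 genes, with a median change of -3.30 in Beach and -1.54 in Inland. To enter these classes the change in Inland had to reach 2-fold and that in Beach a further 2-fold beyond it. The larger changes therefore largely follow from how the classes were defined. The remaining 10 genes called in both genotypes had the larger change in Inland or opposite calls. In the 74 rising genes Beach treatment replicate 3 had the lowest median of its group, 1.90 against 2.24 and 2.35, and Inland control replicate 1 the lowest of its group, -1.46 against -1.17 and -1.08.

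A change called in Inland alone gave 104 of the interactions. For 63 genes the level fell in Inland, with a median change of -1.51, and had a median change of 0.03 in Beach, which gave a positive interaction. For 41 genes the level rose in Inland, with a median change of 1.497 against 0.105 in Beach, which gave a negative one. The small medians in Beach follow in part from choosing genes that were called in Inland alone. The median of the 63 genes was -0.94 to -0.80 in Inland treatment and 0.36 to 0.75 in Inland control, while the Beach groups overlapped, with -0.0025 to 0.18 in Beach treatment and -0.10 to 0.27 in Beach control. The Inland plants had received the lower dose, and effects of dose and genotype cannot be told apart here.

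The 156 genes with no call in either genotype all had fitted changes of opposite sign, which follows for any gene whose changes both stay under 2-fold while their difference exceeds it. In the 71 with a positive interaction the median change was 0.64 in Beach and -0.61 in Inland. In the 85 with a negative interaction it was -0.76 in Beach and 0.45 in Inland. The median size of their interaction was 1.15, which the same definition keeps small.

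**Figure D3:**
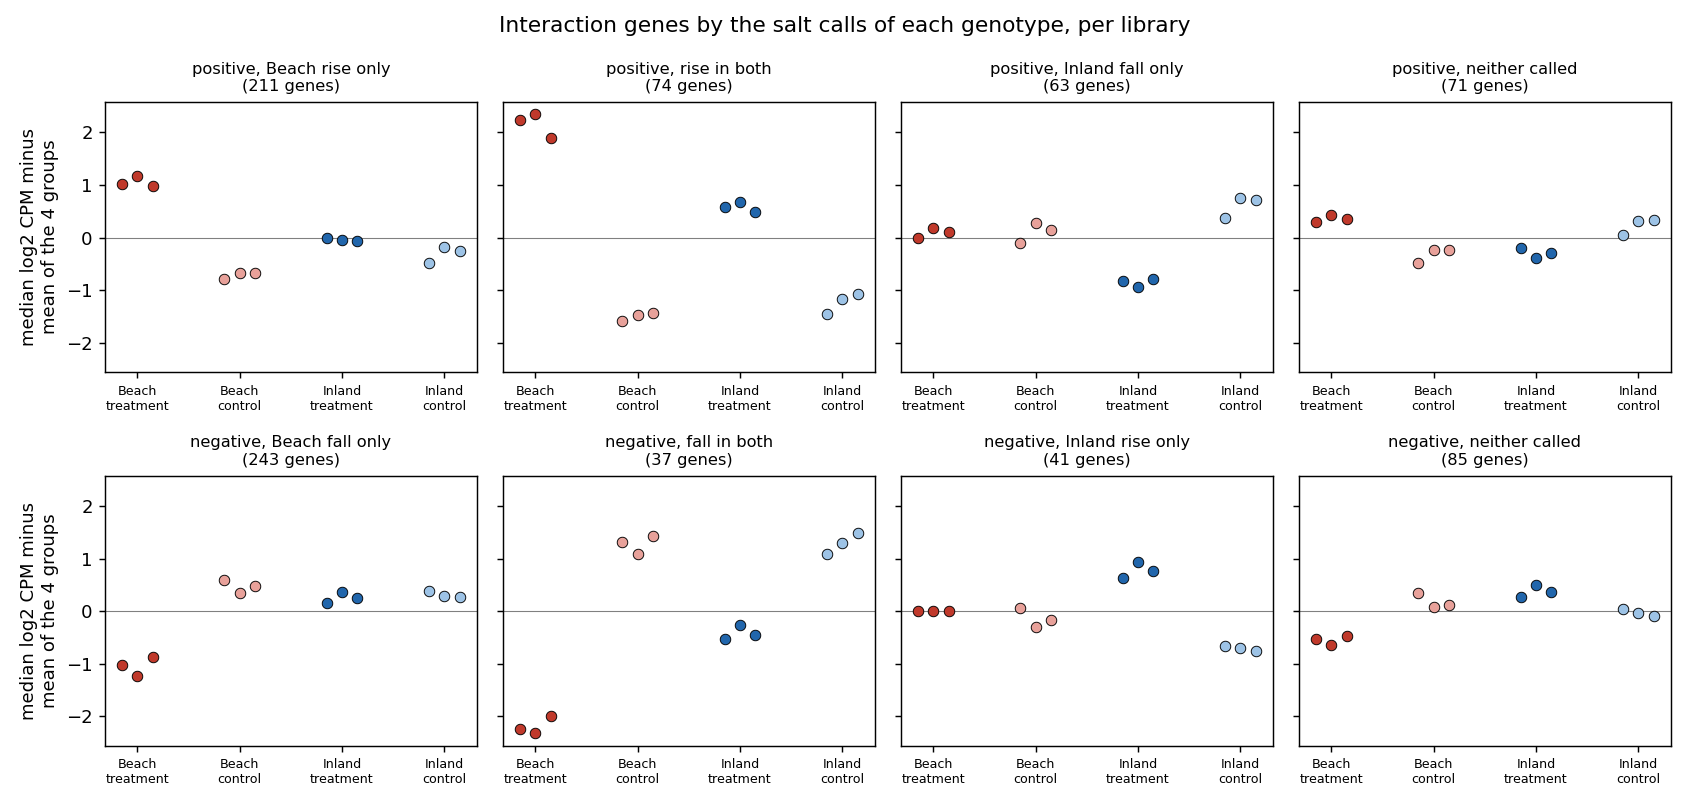
Median over the genes of each class of log2 CPM minus the mean of the 4 groups, 1 point per library, for the 425 positive (upper row) and 410 negative (lower row) interaction genes by which genotype passed the limits for its change with salt, without the 10 genes called in both in other ways. The 74 genes that rose in both reach 1.90 to 2.35 in Beach treatment and 0.49 to 0.68 in Inland treatment, and the 63 genes that fell in Inland alone lie at -0.94 to -0.80 in Inland treatment, below every Beach library, and at 0.36 to 0.75 in Inland control, above every Beach library.

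A call in one genotype and not in the other was not by itself a difference between them. Of the 1302 genes called in Beach and not in Inland, 454 (34.9%) passed the interaction and 848 did not. Of the 469 genes called in Inland and not in Beach, 104 (22.2%) passed it. Among the 872 genes called in both genotypes in the same direction, 116 (13.3%) passed it. In these shared responses the change was larger in Beach for 350 of the 478 that rose (73.2%) and for 246 of the 394 that fell (62.4%), against 63.5% of all tested genes. The share among falling genes was thus near that of all genes. The median ratio of the log2 change in Beach to that in Inland was 1.24 for the genes that rose and 1.09 for those that fell. The doses stood at 400 mM in Beach and 200 mM in Inland, and their part in these ratios cannot be told apart from that of the genotype.

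The same interaction can be read as a difference between Beach and Inland that changed with salt. For 638 of the 835 genes (76.4%) the fitted difference between the genotypes was wider in treated than in control roots, and for 197 (23.6%) it was narrower. Over all tested genes it was wider for 55.1%. The interaction is the difference in treated roots minus that in control roots, and the 835 were chosen for a large one. Over all tested genes the median size of the difference in control roots was 0.20. Adding a large interaction to a small difference widens it, so the larger share largely follows from that choice. Without Inland control replicate 1 the number with a narrower difference was 296, whereas 675 were wider. Narrowing was found in 132 of the 425 positive and 65 of the 410 negative interactions.

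Between Beach treatment and Inland treatment 1734 genes (10.3%) passed the limits, 785 higher (4.64%) and 949 lower (5.61%) in Beach. Between Beach control and Inland control 1074 (6.35%) passed, 437 higher (2.58%) and 637 lower (3.77%) in Beach. Of the 835 interaction genes, 441 (52.8%) differed in treated roots and not in controls. Beach was higher for 205 of these, with a median difference of 1.54 in treated and -0.06 in control roots. It was lower for 236, with a median difference of -1.45 in treated and 0.01 in control roots. Medians near 0 in controls follow from choosing genes that were called in treated roots alone.

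The reverse pattern was less frequent. For 91 genes (10.9%) the genotypes differed in control roots and not in treated roots. In 64 of them Beach control was below Inland control, with a median difference of -1.45, and the median difference in treated roots was 0.03. Here the median change with salt was 1.04 in Beach and -0.49 in Inland, so the medians of the genotypes moved towards each other. In the other 27 Beach control was above Inland control by a median of 1.41, against -0.03 in treated roots, with a median change of -0.96 in Beach and 0.42 in Inland. The narrowing and the small medians in treated roots largely follow from choosing genes that were called in control roots alone. In the 64 genes the library medians were 0.08 to 0.28 in Beach treatment, -0.95 to -0.78 in Beach control, -0.05 to 0.24 in Inland treatment and 0.16 to 0.84 in Inland control. Inland control replicate 1, at 0.16, lay within the range of the treated libraries, while replicates 2 and 3 were at 0.84 and 0.65.

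A difference was called in both treated and control roots for 48 of the 835 genes. In 36 of these the same genotype was higher in both conditions, and in 12 the order of the genotypes turned round with salt. The 12 had interactions with a median size of 3.45, where their definition sets at least 2. No difference between the genotypes passed in either condition for 255 genes (30.5%), with a median size of the interaction of 1.17.

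**Figure D4:**
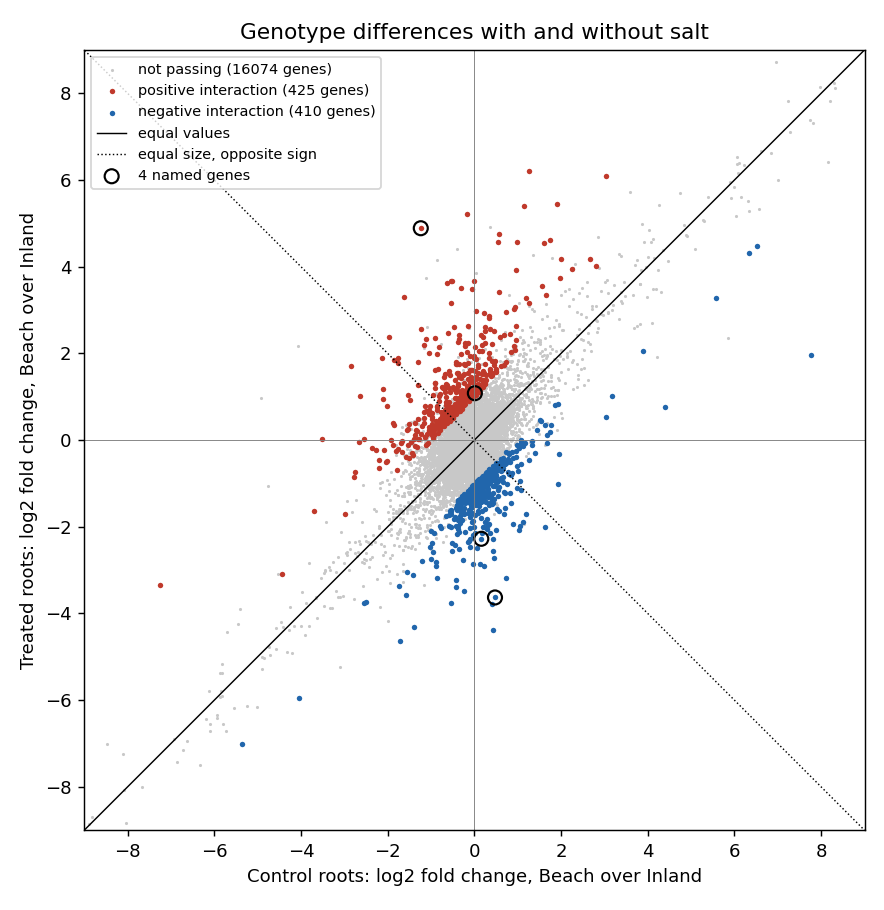
Fitted log2 fold change of Beach over Inland in treated roots (vertical) against control roots (horizontal). Red and blue points are the 425 positive and 410 negative interaction genes, open circles the 4 named genes, the solid line equal differences and the dotted line differences of equal size and opposite sign. Coloured points cluster above and below the origin, where controls were close, and 89 genes that lie outside the axis limits of 9 log2 units, none with an interaction, are not shown.

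The share of genes that passed differed with abundance, but the filter on low counts bears on it. In the quartile of genes with the lowest mean level (log2 CPM from 1.05 to 3.61), 342 of 4228 passed (8.09%), and in the quartile with the highest (5.97 to 13.49), 130 of 4227 (3.08%). The quartiles between had 4.92% and 3.67%. The lowest quartile reaches below 5 CPM on average, and a gene there was tested only if some libraries were high, which favours genes that differ between groups. Among genes above 5 CPM in every library, 26 of 1682 passed in the lowest quartile (1.55%) and 128 of 4194 in the highest (3.05%), a requirement that in turn leaves out genes that fell to low levels. No relation to abundance is therefore drawn. Of the 835 interaction genes, 396 (47.4%) were not above 5 CPM in every library, and 66 were above it only in the 3 libraries of 1 group. Those 66 were 33.7% of the 196 tested genes above it only in 1 group. Among the 13998 tested genes above 5 CPM in every library, 439 (3.14%) passed. The median size of the interaction over all genes of the quartile was 0.35 at the lowest and 0.20 at the highest level, and the median standard error was 0.23 and 0.14. Of the 1243 genes (7.35%) with a fitted interaction of at least 2-fold, 408 missed the fdr limit, among them 224 in the lowest quartile and 42 in the highest. In the highest quartile 79 interactions were positive and 51 negative, in the lowest 166 and 176.

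The chromosome number that the identifiers carry did not set the genes apart in number. The share of tested genes that passed ran from 4.13% on chromosome 4 (39 of 944) to 5.57% on chromosome 5 (62 of 1113), against 4.94% of all. Of the few identifiers marked L in place of a chromosome number, 3 of 31 passed (9.68%). Chromosome 4 held 26 positive and 13 negative interactions, and chromosome 9 held 40 and 59. The split of directions by chromosome was not tested. Of the 11421 pairs of tested genes with consecutive identifiers, both members passed in 61, with the same direction in 44 and opposite directions in 17. The 61 pairs held 116 interaction genes, and in 995 other pairs a member passed without its neighbour. Whether 61 is more than expected for unrelated neighbours was not tested, nor whether the paired genes are copies. Neighbouring copies of a gene can share reads, and reads that aligned to more than one place were not counted, so single values in such pairs are uncertain.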

How the data were processed

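Root RNA of 12 libraries was sequenced as single reads. The authors trimmed reads with Trimmomatic 0.36, mapped them with STAR to common bean and, with featureCounts, summed the exon reads of each gene that aligned to 1 place, naming no strand option. The deposited values are whole-number counts per gene without normalization. Versions of STAR and featureCounts are not given in the sources used here.

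Genes above 5 CPM in at least 3 of 12 libraries were kept (99.2% of counts), as in the authors' code, and libraries were scaled by TMM. The interaction and the 4 simple contrasts were tested in 1 model of 4 groups with edgeR 4.0.16 in R 4.3.3 (glmQLFit, glmQLFTest), with Benjamini-Hochberg adjustment over all tested genes. A gene passed at an fdr of at most 0.05 and a 2-fold difference. The authors' exact test cannot test an interaction. Standard errors were derived from the F statistic. CPM used TMM-scaled totals, and log2 CPM a prior count of 2. Figures used matplotlib 3.10.9.

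Named genes had to pass, hold at least 10 counts in every library and have responses that did not overlap. The gene with the smallest p and that with the largest interaction were then taken in each direction. Members and rules were chosen with earlier results of these data known. The steps were tested on simulated data. Within groups, chi-square over the tested genes was 14.2 to 74.7 per degree of freedom between 2 replicates, so no library was a copy. Alternatives covered the test (DESeq2 1.42.0, limma 3.58.1), scaling, filter, thresholds, depth, a replicate block and leaving out each library with the tested genes held fixed.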

Additional observations from a re-analysis of the deposited data

Results flagged for a closer look

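For each of the 4 named genes the effect of salt differed between Beach and Inland by the test of the interaction itself (edgeR's quasi-likelihood test). The log2 fold change with salt in Beach minus that in Inland was 1.07 for Phvul.003G134200 (edgeR fdr = 0.000463), 6.12 for Phvul.006G148400 (edgeR fdr = 0.00287), -2.44 for Phvul.009G128500 (edgeR fdr = 0.000463) and -4.11 for Phvul.005G124600 (edgeR fdr = 0.000691). These genes were chosen for the smallest p or the largest interaction, so their values are at the extreme of the 835 by that choice. Phvul.006G148400 was tested only through the group where it was high. A higher level there was thus a condition of its being tested and is no separate evidence. This gene did not pass with limma-voom (limma-voom fdr = 0.120). With each of the 12 libraries left out in turn, all 4 passed both limits, with values from 1.04 to 1.10, 5.70 to 6.55, -2.55 to -2.31 and -4.52 to -3.86. The genes were chosen on these same libraries, so this is no separate evidence. Groups of 3 libraries are too small for a formal test of single outlying values, and none was made.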

How the results depend on the processing

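Under the alternatives tried, none of the 835 genes changed the sign of its interaction. Changed limits and the test against 2-fold reuse the same fitted values, so no sign could change there. In the other fits the genes had been chosen for differences of at least 2-fold, which makes such a change unlikely. Without a minimum fold change 2195 genes passed, 1085 positive and 1110 negative, with a wider difference between genotypes under salt for 1632 and a narrower one for 563. At an fdr of at most 0.01, 371 passed, 158 positive and 213 negative, 302 wider and 69 narrower. With the difference tested against 2-fold, an alternative chosen after the data were seen, 19 passed, 11 positive and 8 negative, 17 wider and 2 narrower. Leaving out each library in turn gave 593 to 971 genes, 284 to 526 of them positive and 303 to 468 negative, 456 to 686 wider and 132 to 296 narrower, and between 68.0% and 91.4% of the 835 were kept. With the most distant control library of each genotype, replicate 1 in both, left out together, also chosen after the data were seen, 989 passed, 583 positive and 406 negative, and 297 were narrower. The cause of these shifts was not tested. Other tests gave 726 (limma-voom), 1016 (likelihood ratio) and 1020 (DESeq2) genes, filters at 1 CPM and at any count 1106 and 1147, size factors of DESeq2 836, library totals 933, and thinning of all libraries to the smallest total 835, of which 793 were the same genes. Of the 4 named genes, Phvul.003G134200 lost its call with library totals and when tested against 2-fold, where its edgeR fdr was 1, and Phvul.006G148400 with limma-voom.

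With the replicate number as a block 772 genes passed, 384 positive and 388 negative. The numbers were not used as pairs: over 18 same-numbered pairs, libraries had correlations of deviations from their group mean from -0.16 to 0.12, with 3 above 0.1, and 4 of the 12 libraries correlated best with their own number.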

Other observations

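Below the limit of 5 CPM, 3303 further genes exceeded 1 CPM in at least 3 libraries. In the alternative fit that included them, 267 (8.08%) passed the interaction by edgeR's quasi-likelihood test, 111 with a positive and 156 with a negative value. This count over the added genes alone was taken after the data were seen, and such genes too were kept only if 3 libraries were high enough. The difference between the genotypes was wider under salt for 218 of the 267 and narrower for 49. The larger number of wider differences here too largely follows from choosing large interactions. The median size of their interactions was 1.85, with a median standard error over the 3303 genes of 0.36. In 3 of the 267 no count fell in any library of some group, so their fitted values are no measure of the size.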
